A study of Mus musculus with 31 samples.

Results

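De novo fatty acid synthesis in the mammary gland was followed through 10 genes, *Fasn*, *Acaca*, *Acacb*, *Acly*, *Acss2*, *Me1*, *Slc25a1*, *Srebf1*, *Thrsp* and *Olah*. They were chosen as a list of the pathway's enzymes, carriers and regulators and matched by symbol in the mouse GRCm39 annotation. All 10 were among the 55379 genes counted, and all 10 were among the 14362 genes that passed a filter on low counts. C57BL/6J dams had eaten a breeder diet with 4 mg/kg folic acid (FA) or an FA diet with 24 mg/kg, and had received saline or fluoxetine, a selective serotonin reuptake inhibitor, every day. Injections (20 mg/kg bodyweight of fluoxetine hydrochloride) ran from embryonic day 13 to lactation day 10, when whole mammary glands were taken for RNA sequencing. By the labels there were 31 dams with 1 library each: 8 had the breeder diet + saline, 7 the breeder diet + fluoxetine, 8 the FA diet + saline and 8 the FA diet + fluoxetine. The methods text has the smaller number in the other fluoxetine group, and the labels were followed here. No group was genetically modified, and the breeder diet itself held FA.

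A lactating mammary epithelial cell makes the short and medium chain fatty acids of milk fat itself. Citrate leaves the mitochondrion through the carrier encoded by *Slc25a1* and is split by ATP citrate lyase (*Acly*) to acetyl-CoA, while acetyl-CoA synthetase (*Acss2*) makes acetyl-CoA from acetate. Acetyl-CoA carboxylases (*Acaca* in the cytosol, *Acacb* at the mitochondrion) turn it into malonyl-CoA, and fatty acid synthase (*Fasn*) lengthens the chain with NADPH, part of which comes from malic enzyme (*Me1*). In the gland, thioesterase II (*Olah*) releases chains from the synthase early, which gives the medium chains typical of milk. *Srebf1* encodes a transcription factor that switches on lipogenic genes through sterol regulatory elements, and *Thrsp* (Spot14) is a nuclear and cytosolic protein that promotes lipogenesis.

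Total counts per library ranged from 15412542 to 36000439. The glands carried the markers of lactating tissue: the summed level of 10 secretory epithelium markers, milk protein genes among them, lay at a median of 524100 to 598800 CPM (counts scaled to a common library size by TMM) in the 4 groups, and no marker of the 7 cell type lists was at 0 in all libraries. Adipocytes also make fatty acids, and 10 adipocyte markers summed to between 1516 and 3392 CPM in the 31 dams. The lowest sum was that of FA diet + fluoxetine dam 3. The markers were *Adipoq*, *Lep*, *Plin1*, *Cidec*, *Cfd*, *Retn*, *Lipe*, *Pparg*, *Fabp4* and *Lpl*. Whether other cells of the gland express them was not tested. Since whole gland was sequenced, fewer cells of a type and less RNA per cell cannot be told apart. In 2 libraries the milk transcripts took a lower share than in the rest. The 20 most abundant genes held 39.3% of the counts of FA diet + fluoxetine dam 3 and 60.5% of those of breeder diet + fluoxetine dam 13, against 70.1% to 81.0% in the other libraries. The summed secretory epithelium markers of these 2 dams were 42760 and 238100 CPM in the same order, against 355900 to 732600 CPM in the other libraries. Dam 3 of FA diet + fluoxetine also had the highest summed leukocyte (100.9 CPM) and fibroblast (902 CPM) markers of all dams. Medians and leading values are also given without these 2 dams.

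The stretches of 250 bases before the annotated start of the canonical transcripts were searched for 4 short motifs on both strands in GRCm39. The sterol regulatory element in the form TCACNCCAC was found before *Fasn*, *Acaca* and *Acss2*, that is, for 3 of 10 genes, against 1.12% of 21757 protein-coding promoters. An E-box (CACGTG) was found before *Acaca* and *Slc25a1*, against 6.26% of promoters. The GC box (GGGCGG) was found for *Fasn*, *Acly*, *Acss2* and *Srebf1* (36.3% of promoters) and the NF-Y box (CCAAT) for *Fasn* alone among the 10 genes (36.5% of promoters). No match overlapped another. The matches to the sterol regulatory element are shown with 10 bases on either side, because they are the letters that set *Fasn*, *Acaca* and *Acss2* beside each other. They are written 5′ to 3′ in the direction of the gene, with the match in capitals.
Fasn, chr11:120715063-120715091, minus strand, first base of the match 146 bases before the start: cgcgcgggcaTCACCCCACcggcggcggc
Acaca, chr11:84063840-84063868, plus strand, 98 bases before the start: acaggcacacTCACACCACaccctgggtg
Acss2, chr2:155359619-155359647, plus strand, 239 bases before the start: cctaacttggTCACTCCACagccttgcct
Acss2, chr2:155359672-155359700, plus strand, 186 bases before the start: ctacaccccaTCACTCCACgggcccgcct
The *Fasn* and *Acss2* stretches lie wholly within exons of other annotated transcripts of the same genes, so other starts exist. The *Acaca* gene is annotated from chr11:84020476, so its stretch lies inside the gene and an earlier start exists. The stretches of *Acly*, *Srebf1* and *Olah* also lie inside their annotated genes. Whole stretches are shown for *Acaca* and *Slc25a1*, the genes with an E-box, neither of which overlaps an annotated exon. Capitals mark the E-box in both, and in *Acaca* also the sterol regulatory element.
Acaca, chr11:84063698-84063947, plus strand: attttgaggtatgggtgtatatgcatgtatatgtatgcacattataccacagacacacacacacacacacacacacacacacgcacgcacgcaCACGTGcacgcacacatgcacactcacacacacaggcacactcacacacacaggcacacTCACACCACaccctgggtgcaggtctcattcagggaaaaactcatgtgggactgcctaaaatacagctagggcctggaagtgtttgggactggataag
Slc25a1, chr16:17746246-17746495, minus strand: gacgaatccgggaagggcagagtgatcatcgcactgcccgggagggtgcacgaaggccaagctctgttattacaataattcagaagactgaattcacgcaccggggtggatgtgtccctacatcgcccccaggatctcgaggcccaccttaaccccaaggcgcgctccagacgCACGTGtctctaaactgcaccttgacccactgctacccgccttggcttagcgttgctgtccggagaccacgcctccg
In *Acaca* both matches lie in or beside a run of CA repeats, and the GC content of the stretch was 50%, against 59.2% in *Slc25a1* and 78.8% in *Fasn*. No match was found before *Acacb*, *Me1*, *Thrsp* or *Olah*, which says only that these letters are not in those stretches. A match is a run of letters and was not tested as a binding site.

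*Fasn* took the most counts of the 10 genes, 0.281% of all counts and rank 21 among the genes counted. Per kilobase of merged exons the order was led by *Olah* (median 535.3 CPM per kb over 31 dams), *Thrsp* (391.4) and *Fasn* (232.3), followed by the citrate carrier *Slc25a1* (134.3). *Me1* (62.2 CPM per kb) came next, then *Acly* (31.9), *Acaca* (29.0), *Acacb* (28.0) and *Srebf1* (24.5), and *Acss2* was lowest at 2.105. Within dams, *Thrsp* lay above *Fasn* in 30 of 31 and *Slc25a1* above *Me1* in 31 of 31, and these gaps were larger than their spread over dams. *Olah* did not differ from *Thrsp* beyond the spread over dams. From *Acly* to *Srebf1*, no gene differed beyond it from the next in the order. Per kilobase of the canonical transcript, 4 of 10 genes kept their place: *Thrsp* (673.4) then lay before *Olah* (617.8), and *Acly* (105.4) before *Me1* (91.5). Exon length set the value of *Acss2* most, which was 13.8 CPM per kb on that scale. The plot of levels per length shows both scales.

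**Figure D1:**
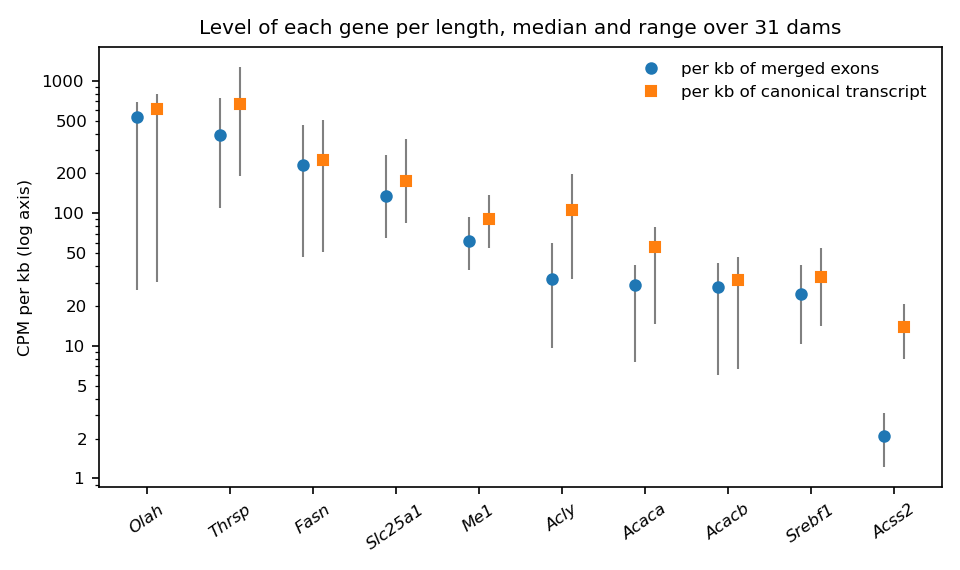
CPM per kilobase (log axis) of each gene over 31 dams. Circles are medians per kilobase of merged exons and squares per kilobase of the canonical transcript, and lines run from the lowest to the highest dam. *Olah*, *Thrsp* and *Fasn* lead on both scales and *Acss2* is lowest.

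For carbon supply, the mRNA of 3 genes was counted, and no flux was measured here or in the steps below. The citrate carrier *Slc25a1* ranged from 174.4 to 384.1 CPM (median 293.4) in breeder diet + saline and from 219.3 to 464.8 CPM (median 296.0) in breeder diet + fluoxetine. On the FA diet it ranged from 221.4 to 667.9 CPM (median 385.8) with saline and from 156.0 to 591.4 CPM (median 325.4) with fluoxetine. The 4 groups overlapped, and the highest and the lowest dam both had the FA diet. *Acly*, the enzyme that splits citrate, ranged from 242.8 to 594.9 CPM (median 514.0) in breeder diet + saline and from 259.8 to 850.0 CPM (median 365.6) in breeder diet + fluoxetine. On the FA diet it ranged from 370.4 to 818.3 CPM (median 556.9) with saline and from 140.7 to 878.6 CPM (median 422.0) with fluoxetine. In both diets the fluoxetine group held the dam with the most *Acly*, although its median lay under that of the saline group. *Acss2*, which activates acetate, was the scarcest of the 10 genes and ranged from 24.2 to 43.8 CPM in breeder diet + saline, from 29.96 to 61.4 with breeder diet + fluoxetine, from 35.4 to 55.5 in FA diet + saline and from 25.5 to 62.0 in FA diet + fluoxetine. Of its exon bases, 11.6% are shared with genes on the other strand.

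For NADPH supply, the gene followed was *Me1*, cytosolic malic enzyme. It ranged from 246.3 to 415.1 CPM (median 336.1) in breeder diet + saline and from 300.6 to 498.0 CPM (median 423.9) in breeder diet + fluoxetine. With the FA diet it ranged from 285.5 to 528.5 CPM (median 417.0) with saline and from 228.3 to 574.5 CPM (median 379.5) with fluoxetine. Its spread over all dams, with a coefficient of variation (CV) of 21.5%, was the lowest of the 10 genes. *Me1* shares 35.5% of its exon bases with genes on the other strand, mostly *Rwdd2a*. The strand option of the counting is not given in the sources used here, so reads of these genes cannot be told apart.

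For the step to malonyl-CoA, the mRNA of both carboxylases was counted. *Acaca*, the cytosolic form, ranged from 245.1 to 607.6 CPM (median 563.1) in breeder diet + saline. With fluoxetine on the same diet, 4 dams lay between 371.4 and 394.7 CPM and the other 3 between 602.4 and 676.8 CPM. On the FA diet it ranged from 359.8 to 641.3 CPM (median 560.3) with saline and from 138.3 to 753.4 CPM (median 445.3) with fluoxetine. The medians of both fluoxetine groups were below those of the saline groups, while the highest dam of each diet was a fluoxetine dam. *Acacb*, the mitochondrial form, ranged from 160.7 to 381.2 CPM in breeder diet + saline, from 201.6 to 399.3 in breeder diet + fluoxetine, from 223.7 to 362.3 in FA diet + saline and from 61.3 to 426.9 in FA diet + fluoxetine. Its 4 medians lay within 261.4 and 300.6 CPM.

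For chain building, the genes followed were *Fasn* and *Olah*. *Fasn* ranged from 1136 to 3158 CPM (median 2551) in breeder diet + saline and from 1468 to 5162 CPM (median 2087) in breeder diet + fluoxetine. On the FA diet it ranged from 2101 to 5441 CPM (median 3517) with saline and from 551.5 to 4198 CPM (median 1764) with fluoxetine. With fluoxetine the values of *Fasn* lay on both sides of a gap: 4 breeder diet dams lay between 1468 and 2087 CPM and the other 3 between 3450 and 5162, and 5 FA diet dams lay between 551.5 and 1869 CPM and the other 3 between 3004 and 4198. Saline dams had gaps as well, at the ends of their ranges. On the breeder diet dam 3 lay at 1136 CPM and the next at 1991, and on the FA diet dam 3 lay at 5441 and the next at 4099. The CV of *Fasn* was 27.6% and 27.9% in the saline groups and 51.3% and 56.2% in the fluoxetine groups. This difference in spread was noticed in the values and was not tested, and the share of all genes with such a difference was not computed. *Olah*, the thioesterase that ends medium chains, ranged from 668.9 to 1077 CPM (median 948.2) in breeder diet + saline and from 453.0 to 1221 CPM (median 949.4) in breeder diet + fluoxetine. With the FA diet it ranged from 721.8 to 1076 CPM (median 933.7) with saline and from 46.7 to 1147 CPM (median 718.0) with fluoxetine. The lowest value belonged to dam 3 of FA diet + fluoxetine, and the next lowest of that group was 386.0 CPM. The medians of the other 3 groups differed by less than their own ranges.

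The regulators were *Srebf1* and *Thrsp*. *Srebf1* ranged from 60.8 to 239.6 CPM (median 145.6) in breeder diet + saline and from 112.1 to 215.7 CPM (median 155.8) in breeder diet + fluoxetine. With the FA diet it ranged from 64.2 to 166.1 CPM (median 113.3) with saline and from 66.6 to 210.2 CPM (median 155.6) with fluoxetine. In FA diet + fluoxetine, 3 dams lay between 66.6 and 76.6 CPM and the other 5 between 149.4 and 210.2 CPM. *Thrsp* ranged from 657.3 to 990.2 CPM (median 726.9) in breeder diet + saline and from 641.2 to 1623 CPM (median 844.9) in breeder diet + fluoxetine. With the FA diet it ranged from 681.6 to 1435 CPM (median 941.6) with saline and from 242.7 to 967.0 CPM (median 855.1) with fluoxetine. Of the 8 FA diet + saline dams, 7 lay above the median of breeder diet + saline for *Thrsp*, and the groups still overlapped.

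**Figure D2:**
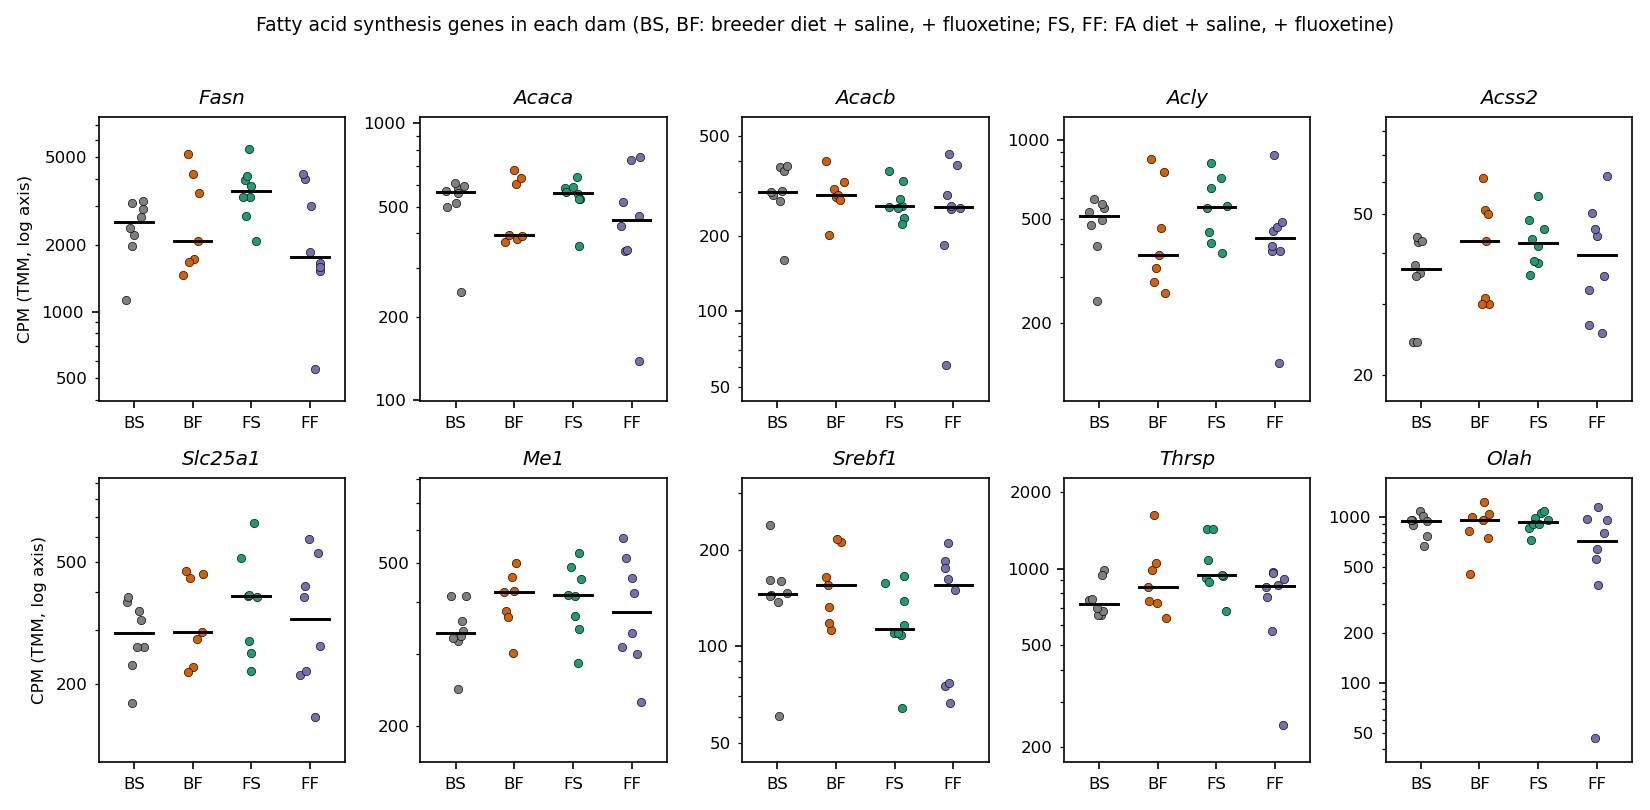
CPM after TMM normalization (log axes) of the 10 genes in each of 31 dams, with 1 point per dam and a bar at the group median. The groups overlap for every gene, and the lowest point of FA diet + fluoxetine in 8 of the 10 panels is dam 3 of that group, which is the lowest of all 31 dams there. These ranks hold on the TMM scale, whose factors ran from 0.716 to 3.04, and were not taken without it.

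The first comparison asked whether fluoxetine changed the pathway. No gene of the 10 passed an FDR of 10% with edgeR's quasi-likelihood test, against 3 of 14362 genes overall (0.0209%), and none of the 10 had an unadjusted p under 0.05. Over all genes, 1425 had an unadjusted p of this size. The log2 fold change of fluoxetine against saline, averaged over both diets, was -0.22 for *Fasn* (SE 0.22, 95% interval -0.67 to 0.23, adjusted p = 0.774). It was -0.24 for *Olah* (95% interval -0.67 to 0.20), -0.19 for *Acly* (-0.57 to 0.20) and -0.15 for *Acaca* (-0.48 to 0.18). *Acacb* (-0.05) and *Thrsp* (-0.07) lay closer to 0. Point estimates above 0 were found for *Srebf1* (0.13, 95% interval -0.21 to 0.48), *Me1* (0.09), *Acss2* (0.07) and *Slc25a1* (0.03). The median over the 10 genes was -0.06 and that over all genes tested 0.02. Without both dams named above the median was -0.03 and no gene of the 10 was called.

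The second comparison asked whether FA supplementation changed it. No gene of the 10, and 0% of the 14362 genes tested, passed an FDR of 10% with edgeR's quasi-likelihood test. DESeq2 and the likelihood ratio test also called 0 genes, and 729 genes had an unadjusted p under 0.05, none of the 10 among them. The log2 fold change of the FA diet against the breeder diet was 0.21 for *Slc25a1* (SE 0.18, 95% interval -0.16 to 0.58, adjusted p = 0.943) and 0.12 for *Fasn* (SE 0.22, 95% interval -0.32 to 0.57, adjusted p = 0.990). *Srebf1* had the lowest value, -0.25 (SE 0.17, 95% interval -0.60 to 0.10, adjusted p = 0.934), and *Olah* (-0.17) and *Acacb* (-0.16) were also below 0. *Me1*, *Acss2*, *Acly* and *Thrsp* lay between 0.07 and 0.10, and *Acaca* at -0.01. The median over the 10 genes was 0.07, against 0.02 over all genes tested. Without the 2 dams it was 0.17, with *Fasn* at 0.30, *Acly* at 0.24 and *Thrsp* at 0.22. When each dam was left out in turn, *Fasn* was lowest (0.03) when dam 6 of FA diet + fluoxetine was omitted and highest (0.23) when dam 13 of breeder diet + fluoxetine was omitted. These intervals are wide next to the point estimates.

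The third comparison asked whether the difference with fluoxetine depended on the diet. No gene of the 10 and 0% of all genes passed an FDR of 10% for the interaction with edgeR's quasi-likelihood test. DESeq2 and the likelihood ratio test called 0 genes as well, and 552 genes had an unadjusted p under 0.05. Point estimates were below 0 for 9 of the 10 genes, meaning that fluoxetine minus saline was lower on the FA diet than on the breeder diet, with a median of -0.33 against 0.03 over all genes. Of all genes, 53.99% had a point estimate above 0. *Fasn* had the lowest, -0.84 (SE 0.44, 95% interval -1.74 to 0.05, unadjusted p = 0.0626, adjusted p = 0.977). *Thrsp* followed at -0.74 (SE 0.31, 95% interval -1.37 to -0.11, unadjusted p = 0.0219, adjusted p = 0.977) and was the 1 gene of the 10 with an unadjusted p under 0.05. Neither passed the FDR. Without both dams, *Fasn* stood at -0.48, *Thrsp* at -0.42 (unadjusted p = 0.0579), and the median at -0.17, with 6 of 10 genes below 0. Of all genes, 50.87% were then above 0. When each dam was left out in turn, *Fasn* ran from -1.03 to -0.63 and *Thrsp* from -0.82 to -0.56, in both cases highest without dam 13 of breeder diet + fluoxetine.

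**Figure D3:**
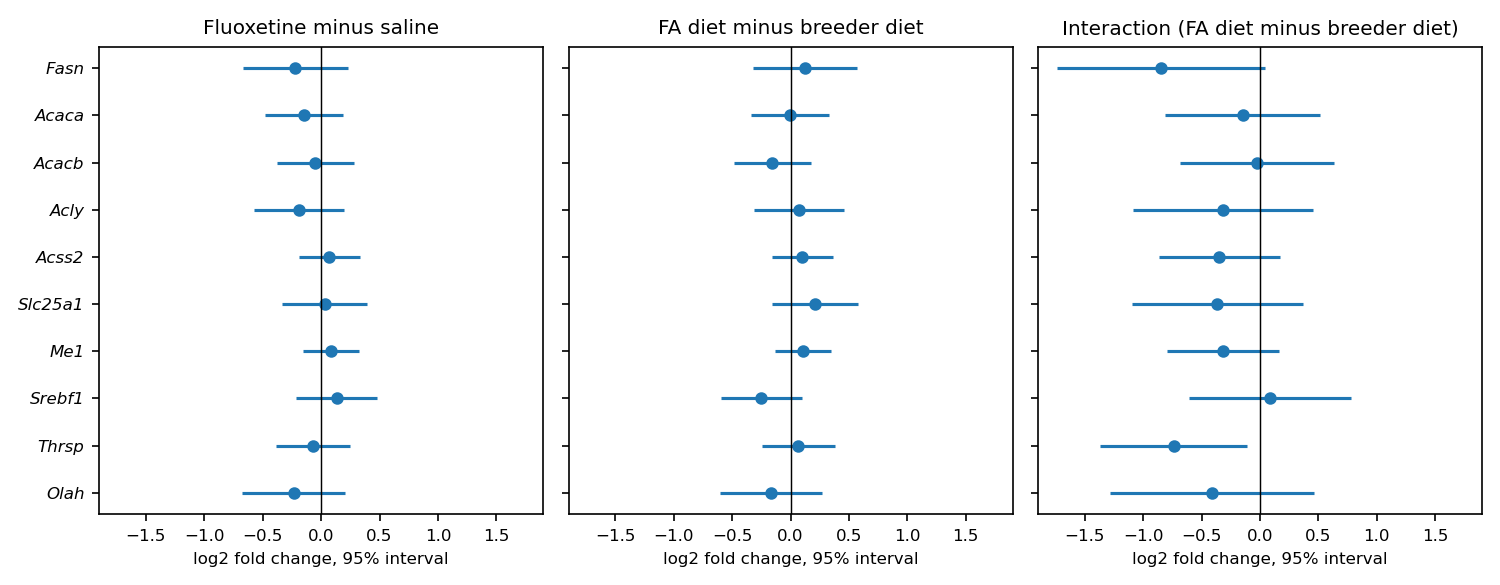
Log2 fold changes (points) with 95% intervals (lines) of the 10 genes in 3 comparisons of 31 dams, from edgeR's quasi-likelihood fit. For fluoxetine and for FA every interval spans 0, and for the interaction the interval of *Thrsp*, -1.37 to -0.11, is the one that does not.

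The same contrast was taken within each level of the other factor. On the breeder diet, fluoxetine minus saline had a positive point estimate for *Thrsp* (0.30), *Me1* (0.24), *Acss2* (0.24), *Slc25a1* (0.21) and *Fasn* (0.20), and the median of the 10 genes was 0.14. These values rested in part on dam 13 of breeder diet + fluoxetine: without it *Fasn* stood at -0.01, *Thrsp* at 0.12 and *Acss2* at 0.13, and the median at -0.01. On the FA diet, *Fasn* stood at -0.63 (unadjusted p = 0.0649), *Olah* at -0.44 and *Thrsp* at -0.43, 9 of 10 genes were below 0 and the median was -0.18. Of all genes, 55.38% were above 0 on that diet. Without dam 3 of FA diet + fluoxetine, *Fasn* stood at -0.49 (unadjusted p = 0.0594), *Olah* at -0.26 and *Thrsp* at -0.30, and the median at -0.06. None of these values passed an FDR of 10%. In saline dams, FA minus breeder diet was 0.53 for *Fasn* (unadjusted p = 0.0118, adjusted p = 0.383) and 0.43 for *Thrsp* (unadjusted p = 0.00825, adjusted p = 0.353), and 8 of 10 genes were above 0. In the same fit, 1354 of 12913 genes had an unadjusted p under 0.05 by edgeR's quasi-likelihood test, and 49.6% of all genes were above 0. In fluoxetine dams, FA minus breeder diet was -0.30 for *Fasn* and -0.31 for *Thrsp*, with 9 of 10 genes below 0, while 53.58% of all genes were above 0. Without both dams the direction turned, with *Fasn* at 0.06, *Thrsp* at 0.01 and 7 of 10 genes above 0, against 51.25% of all genes. Saline dams had a mean *Fasn* of 2458 ± 677 CPM (SD, n = 8) with the breeder diet and 3583 ± 998 (SD, n = 8) on the FA diet. Fluoxetine dams had 2826 ± 1449 CPM (SD, n = 7) and 2296 ± 1290 (SD, n = 8). *Thrsp* had means of 769.3 ± 130 CPM, 1040 ± 265, 946.7 ± 331 and 766.9 ± 247 (SD) in the same order. Whether the direction differs between diets is the interaction tested above, which did not pass.

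The genes around the pathway gave no call either. Of 15 genes of acetyl-CoA and NADPH supply, 18 regulators and processing factors of SREBP and 7 genes of mitochondrial fatty acid synthesis, all were tested and 0 passed an FDR of 10% in any of the 3 comparisons. In the first list, glucose-6-phosphate dehydrogenase (*G6pdx*), which makes NADPH in the pentose phosphate pathway, had a fluoxetine log2 fold change of -0.32 (SE 0.15, unadjusted p = 0.0432, adjusted p = 0.492), and citrate synthase (*Cs*) of -0.19. *Idh1* (FA, 0.29, and 0.11 without both dams) and the pyruvate carrier subunit *Mpc1* (interaction, -0.54, unadjusted p = 0.0303, adjusted p = 0.977) had the lowest p of that list in the other comparisons. All 15 genes of it had an interaction estimate below 0, with a median of -0.28, and -0.14 without both dams. Of all genes tested, 53.99% had an interaction estimate above 0. Among regulators, *Mlxipl*, which encodes the carbohydrate-responsive factor ChREBP, stood at 0.53 for fluoxetine (unadjusted p = 0.0212, adjusted p = 0.433) and at -0.35 for FA. *Nr1h3*, the liver X receptor alpha gene, stood at 0.64 for fluoxetine (unadjusted p = 0.0222), and at 0.27 without both dams. *Nr1h3* also stood at 1.31 for the interaction, and at 0.44 without them. In the mitochondrial list, *Hsd17b8* had the lowest p, with 0.75 for fluoxetine (SE 0.25, unadjusted p = 0.00526, adjusted p = 0.360), *Oxsm* stood at -0.29, *Acsf3* at 0.22 for FA and the acyl carrier gene *Ndufab1* at -0.26 for the interaction (-0.13 without both dams). The levels of *Hsd17b8* were low, with means of 1.17 CPM in saline dams and 1.93 in fluoxetine dams. Those of *Nr1h3* were 2.02 and 3.20 CPM and those of *Mlxipl* 4.7 and 6.8, in the same order. Medians for fluoxetine were -0.08, -0.01 and 0.02 in the 3 lists.

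From dam to dam, most genes of the pathway followed *Fasn*. For each gene, log2 CPM was centred on its group means and Pearson's r with *Fasn* was tested by permuting dams within groups (100000 resamples, two-sided), with Benjamini-Hochberg adjustment over 14361 genes. *Acaca* had the highest r of all 14361 genes, 0.898 (Spearman's rho 0.800). *Acly* (r 0.861, rho 0.827), *Acss2* (r 0.814, rho 0.866), *Slc25a1* (r 0.778, rho 0.798), *Acacb* (r 0.713, rho 0.441), *Thrsp* (r 0.703, rho 0.534) and *Srebf1* (r 0.629, rho 0.550) also passed an FDR of 10%. That was 7 of 9 genes, against 5.53% of all genes with a positive r past the same threshold. By Spearman's rho 6 of 9 passed, since *Acacb* did not (adjusted p = 0.173), against 552 of all 14361 genes with a positive rho. The permutation p of r was 1e-05 for *Acaca*, *Acly*, *Acss2* and *Slc25a1*, the smallest that 100000 resamples can give, and 0.00037 to 0.00053 for the other 3, and that of rho was 1e-05 to 0.0183. Leaving out each dam in turn left 7 genes past the threshold in every fit, while 1009 to 1425 of all genes passed in either direction. All of these points share a library, so both genes of a pair were measured in the same RNA.

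*Me1* and *Olah* did not pass. *Me1* had r 0.292 (rho 0.149, permutation p = 0.199 and 0.468, adjusted p of r 0.472) and *Olah* r 0.445 (rho 0.121, permutation p = 0.107 and 0.554, adjusted p of r 0.355). Without dams 3 and 6 of FA diet + fluoxetine, the dams farthest from the median of *Fasn*, r was 0.833 for *Acaca*, 0.836 for *Acly*, 0.815 for *Acss2*, 0.711 for *Slc25a1*, 0.550 for *Srebf1* and 0.530 for *Thrsp*, which all passed. *Acacb* (r 0.494, adjusted p = 0.128) no longer did, so its relation rested in part on those dams. Of all 14361 genes, 508 passed with a positive r in that setting. *Olah* then stood at -0.06 and *Me1* at 0.11. Without dam 3 of FA diet + fluoxetine and dam 13 of breeder diet + fluoxetine, *Acacb* (r 0.602) passed and *Thrsp* (r 0.415, adjusted p = 0.184) did not. Of all genes, 550 then passed with a positive r. Between the regulators and *Olah*, *Thrsp* and *Olah* had r 0.712, which was 0.233 without these 2 dams. *Acaca* and *Acacb* had r 0.844, and 0.749 without them. No library measure had a permutation p under 0.05 for its relation with *Fasn*. Over 31 dams r was 0.276 with total counts (rho 0.107, p = 0.207 and 0.591), 0.308 with the share of the 20 most abundant genes (rho -0.052, p = 0.235 and 0.778) and 0.0944 with the number of genes detected (rho 0.0927, p = 0.648 and 0.653). Adjusted over the 3 measures, p was 0.352, 0.352 and 0.648. Without the 2 dams farthest from the median of each measure, r was 0.227, -0.237 and 0.272.

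The 5 genes outside the pathway list with the highest r over 31 dams were *Pa2g4* (0.871), *Ganab* (0.864), *Gna11* (0.864), *Dhodh* (0.863) and *Mpi* (0.861), each with a permutation p of 1e-05. Their r without both dams was 0.856, 0.758, 0.809, 0.783 and 0.799. The lowest r belonged to *Ctdsp2* (-0.855), *Stat3* (-0.851) and *Btg1* (-0.842), which were named after their values were seen. *Stat3* encodes the factor known for starting mammary involution.

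**Figure D4:**
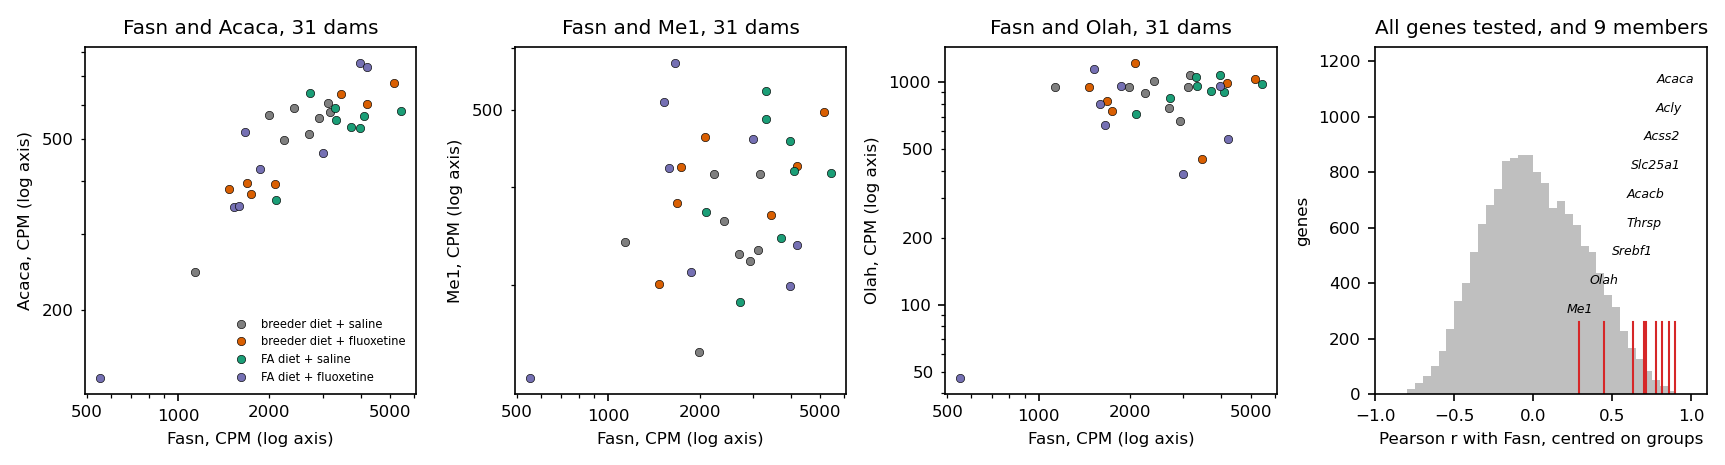
Left to right, CPM of *Acaca*, *Me1* and *Olah* against that of *Fasn* in 31 dams (log axes, 1 point per dam, colour by group), and the number of genes by Pearson's r with *Fasn* after centring on group means, with red lines at the 9 other genes of the pathway. *Acaca* rises with *Fasn* (r 0.898), *Me1* (r 0.292) and *Olah* (r 0.445) do not pass the test, and the dam lowest in all panels is FA diet + fluoxetine dam 3.

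The pathway was set beside the markers of both cell types that make fatty acids. The mean log2 CPM used here weighs all markers of a list alike, while the summed CPM given above follows the most abundant ones. With the mean log2 CPM of 10 adipocyte markers, 0 of 10 genes passed an FDR of 10% in either direction by the same permutation test, against 0.550% of all genes. Values of r lay between -0.371 (*Olah*) and 0.174 (*Slc25a1*), and *Fasn* stood at -0.0034 (rho 0.129, permutation p = 0.988 and 0.535, adjusted p = 0.997). Without dam 3 of FA diet + fluoxetine and dam 6 of breeder diet + fluoxetine, the dams farthest from the median, r of *Fasn* was 0.252. The Spearman correlation also called 0 of 10. With 10 secretory epithelium markers, 1 of 10 genes passed, *Me1* (r 0.538, rho 0.485, permutation p = 0.0061 and 0.00205, adjusted p = 0.0699), against 8.30% of all genes with a positive r. The 10 genes thus passed at about the rate of all genes. *Olah* had the highest r, 0.846 (rho 0.544, permutation p = 0.0291 and 0.0123, adjusted p = 0.139), and *Fasn* r 0.464 (rho 0.172, permutation p = 0.0996 and 0.343, adjusted p = 0.241). Without dam 3 of FA diet + fluoxetine and dam 13 of breeder diet + fluoxetine, the dams farthest from the median, *Me1* kept r 0.520 (adjusted p = 0.0952), while *Olah* stood at 0.264 and *Fasn* at 0.0502. The call of *Me1* was lost without dam 1, 2 or 3 of FA diet + fluoxetine or dam 2 of FA diet + saline, and 3 genes passed without dam 13 of breeder diet + fluoxetine. Over the fits that left out 1 dam, 218 to 2741 of all genes passed in either direction, against 2028 with all 31 dams. No gene of the 7 marker lists passed an FDR of 10% for fluoxetine, FA or the interaction, and the median log2 fold change for fluoxetine was -0.15 for secretory epithelium and 0.11 for adipocyte markers (-0.07 and -0.08 without both dams).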

How the data were processed

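Mammary gland RNA of 31 dams was measured, 1 library per dam. The authors trimmed the reads (Trim Galore 0.4.4), aligned them in HISAT2 and obtained gene totals from HTSeq, and the deposited values are raw counts per Ensembl gene. The annotation release and the strand option are not given in the sources used here. Symbols, exon lengths and sequences were taken from GENCODE vM39 on GRCm39, which lacked 667 gene IDs. In R 4.3.3 with edgeR 4.0.16, filterByExpr left 14362 genes, libraries were scaled by TMM, and 4 groups were fitted together with the quasi-likelihood test, Benjamini-Hochberg adjustment over all genes and an FDR of 10%. Scripts were tested on simulated data. Log2 CPM carried a prior count of 2. Correlations used numpy 2.4.6. No pair of libraries within a group agreed within sampling noise (chi-square over degrees of freedom at least 15.8). Total counts lay between 15412542 and 36000439, and each gene of the pathway had at least 436 counts in every library, so spread between dams sets the precision.

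Genes named beside the 10 were, per wider list, the 2 of smallest p for fluoxetine and 1 each for FA and the interaction, and the 5 genes of highest r with *Fasn*. The genes and lists were chosen with earlier results of these data known. Alternatives were the likelihood ratio test, DESeq2 1.42.0, other filters and normalization, a block on animal number, single diets or treatments, other correlation settings and each dam left out. The FA diet alone, fluoxetine dams alone, both dams of low milk share left out (of all dams and of single diets or treatments) and the canonical transcript length were chosen after seeing the data. Animal numbers are shared between groups, but deviations of same-numbered dams had correlations of -0.22 to 0.429 (median 0.0791). Those of dams with different numbers were -0.408 to 0.432 (median -0.00699). There were 28 pairs of the same number and 332 of different numbers. Of 27 libraries, 4 correlated best with their own number. No chance rate was computed for this count and the difference between the medians was not tested, so pairing is not settled. The main fit did not take the numbers as pairs. With a block on them *Fasn* was -0.82 for fluoxetine and -0.086 for the interaction, and these values are given with the alternatives below.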

Additional observations from a re-analysis of the deposited data

Results flagged for a closer look

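In 5 of 40 groups of dams (10 genes by 4 groups), the dam at one end lay unusually far from the rest by Dixon's test. They came from 4 dams. Chance alone gives about 1 in 20 such groups where values are normal and groups independent. The genes here were correlated (r 0.844 for *Acaca* and *Acacb*), and the same share over all genes was not computed. The count is therefore not read as an excess in the pathway. Dam 3 of breeder diet + saline had 245.1 CPM of *Acaca*, with the nearest dam of its group at 498.8, and 160.7 CPM of *Acacb*, with the nearest at 277.0. Dam 10 of FA diet + saline had 359.8 CPM of *Acaca*, with the nearest at 531.0. Dam 4 of FA diet + fluoxetine had 878.6 CPM of *Acly*, with the nearest at 488.2. Dam 13 of breeder diet + fluoxetine had 1623 CPM of *Thrsp*, with the nearest at 1051. This last dam is 1 of the 2 with a low share of milk transcripts.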

How the results depend on the processing

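Under every alternative run, 0 of the 10 genes passed an FDR of 10% for fluoxetine, FA or the interaction, while the number of all genes called for fluoxetine was 3 with the quasi-likelihood test, 45 with the likelihood ratio test, 70 with DESeq2, 1 without a filter and 0 to 19 when each dam was left out. The median of the 10 genes lay between -0.10 and 0.00 for fluoxetine, between 0.02 and 0.14 for FA and between -0.41 and -0.24 for the interaction when each dam was left out. In all of these fits 7 genes were correlated with *Fasn*, and 6 were by Spearman's rho or without the 2 dams farthest from the median. Of all 14361 genes, 1009 to 1425 were called in either direction when each dam was left out. By rho 992 were called (552 with a positive value), and 993 without those 2 dams (508 with a positive r). With at least 436 counts per gene and library, depth is not what limits these values.

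Signs of values that passed no test changed in these cases. For fluoxetine on the breeder diet alone, *Fasn* was 0.20 and *Thrsp* 0.30. On the FA diet alone, *Acss2* was -0.094, *Me1* -0.066 and *Slc25a1* -0.14. For FA in saline dams alone, *Acaca* was 0.057 and *Olah* 0.031. In fluoxetine dams alone, *Fasn* was -0.30, *Acly* -0.084, *Acss2* -0.074, *Me1* -0.061 and *Thrsp* -0.31. With both dams of low milk share left out as well, *Srebf1* was -0.0022 and *Thrsp* 0.12 for fluoxetine on the breeder diet, *Acacb* 0.088, *Acss2* -0.033 and *Slc25a1* -0.040 on the FA diet, and *Acaca* 0.14 for FA in fluoxetine dams. Without both dams of low milk share, *Acacb* was 0.033 for fluoxetine, *Acaca* 0.10 for FA, and *Acaca* 0.084, *Acacb* 0.11 and *Acly* 0.026 for the interaction. With the replicate block, *Acss2* was -0.16 and *Slc25a1* -0.33 for fluoxetine, *Acaca* 0.33 and *Acacb* 0.039 for FA, and *Acaca* 0.41, *Acacb* 0.27, *Acly* 0.074 and *Slc25a1* 0.21 for the interaction. It also gave -0.82 for *Fasn* (unadjusted p = 0.00964) and -0.64 for *Acaca* (unadjusted p = 0.00398) for fluoxetine, 0.60 for *Fasn* (unadjusted p = 0.0319) for FA and -0.086 for *Fasn* (unadjusted p = 0.864) for the interaction, with adjusted p of 0.605, 0.572, 0.800 and 0.9999 by edgeR's quasi-likelihood test. The block called 0 genes in any comparison and gave medians of -0.34, 0.24 and 0.036. Over the fits that left out 1 dam, values ran from -0.11 to 0.015 for *Acacb* and from -0.046 to 0.11 for *Slc25a1* (fluoxetine), from -0.073 to 0.055 for *Acaca* and from -0.033 to 0.18 for *Acly* (FA), and from -0.17 to 0.11 for *Acacb* and from -0.042 to 0.20 for *Srebf1* (interaction). With secretory markers, 7 genes passed without centring on groups, 2 by Spearman's rho and 0 to 3 when each dam was left out, against 1. Of all 14352 genes, 5660 (3133 with a positive r), 2201 and 218 to 2741 passed in the same order, against 2028. By canonical transcript length, 4 of 10 genes kept their place in the order of levels. The causes were not tested.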
